A study of Mus musculus with 24 samples.

Results

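The 8 genes described here encode the cytokines of the interleukin-12 family (Il12a, Il12b, Il23a, Il27 and Ebi3) and a group that acts on lymphocyte survival (Il15, its receptor chain Il15ra, and Il7). They were taken by name from the symbols of the array's annotation, and are 8 of the 19938 genes analysed. Each had 1 probe set, so the rule of taking the highest-mean probe set per gene made no choice among them. Mouse cells of 3 kinds were each kept in RPMI media or in an inflammatory supernatant, with 4 arrays in each of the 6 groups. The epithelial lines C57epi.1, of C57BL/6 origin, and Bm12.4, of B6(C)-H2-Ab1bm12/KhEgJ origin, both derive from the upper reproductive tract. The bm12 allele alters the MHC class II molecule I-A. Macrophages were derived from femur marrow of C57BL/6 mice in GM-CSF. The supernatant was medium conditioned by a Chlamydia-specific CD4 T cell clone and infected epithelial cells, given at 33% (v/v) and brought to 4 ng/ml of interferon-gamma. Each epithelial genotype is represented by 1 line, and the ages of the mice were not analysed here. Nothing in the labels ties replicates to separate cultures, so p-values measure the spread between these arrays, which may be technical. In bulk RNA, fewer cells of a type and less RNA per cell cannot be told apart.

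Interleukin-12 family cytokines are built from 1 helical chain and 1 receptor-like chain. Il12b encodes the receptor-like chain shared by interleukin-12 and interleukin-23, where it pairs with the product of Il12a or Il23a. Ebi3 encodes the receptor-like chain that pairs with the product of Il27 to give interleukin-27 and with that of Il12a to give interleukin-35. Interleukin-12 made by phagocytes and dendritic cells drives T cells towards interferon-gamma, the cytokine that controls Chlamydia in the genital tract. Interleukin-15 is shown to natural killer and memory CD8 T cells on the surface of the cell that makes it, bound to the chain that Il15ra encodes. Interleukin-7 is a survival factor for T cells that is made mainly by stromal and epithelial cells.

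Il12b, Ebi3 and Il15ra are shown here as sequence because, of the members with a window, they stand for 3 patterns in the values: a rise called in macrophages, a macrophage level in either medium, and a rise called in every kind of cell. The promoter table from RefSeq (GRCm38.p6) held 6 windows for 4 of the 8 genes, Il12a, Il12b, Ebi3 and Il15ra, each from 250 bases before to 50 bases after a transcript start. Capitals mark a match on either strand to the interferon regulatory factor core AANNGAAA, to the gamma-activated sequence TTCNNNGAA, or to the NF-kappaB consensus. None of these matches overlapped. The window of Il12b lies at chr11:44399813-44400112, that of Ebi3 at chr17:55952373-55952672 and the downstream window of Il15ra at chr2:11705462-11705761, all on the plus strand.
Il12b: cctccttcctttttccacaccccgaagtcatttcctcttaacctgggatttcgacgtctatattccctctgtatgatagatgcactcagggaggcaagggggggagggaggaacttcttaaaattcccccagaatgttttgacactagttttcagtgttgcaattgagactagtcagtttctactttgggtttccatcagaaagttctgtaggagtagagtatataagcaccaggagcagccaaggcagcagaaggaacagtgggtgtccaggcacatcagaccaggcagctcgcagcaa
Ebi3: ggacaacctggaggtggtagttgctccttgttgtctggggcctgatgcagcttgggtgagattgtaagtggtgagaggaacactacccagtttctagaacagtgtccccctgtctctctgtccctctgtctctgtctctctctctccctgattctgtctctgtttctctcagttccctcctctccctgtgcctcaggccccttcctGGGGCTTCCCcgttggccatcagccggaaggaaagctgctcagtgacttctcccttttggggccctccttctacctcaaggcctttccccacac
Il15ra: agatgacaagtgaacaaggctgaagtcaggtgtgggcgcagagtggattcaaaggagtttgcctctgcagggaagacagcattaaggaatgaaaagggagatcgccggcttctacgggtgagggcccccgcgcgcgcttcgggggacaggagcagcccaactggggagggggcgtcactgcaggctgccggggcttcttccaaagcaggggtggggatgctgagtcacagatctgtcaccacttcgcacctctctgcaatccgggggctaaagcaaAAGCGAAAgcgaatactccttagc
The Il15ra window holds the interferon regulatory factor core as AAGCGAAA, 27 bases into the transcript, and the upstream Il15ra window, not shown, holds 1 more on the minus strand, at −187 from the start. The Ebi3 window holds 1 NF-kappaB match, GGGGCTTCCC, at −44 from the start. The Il12b window and both Il12a windows hold 0 matches to these letters. Of 32851 promoter windows of this length, 23.9% hold the interferon regulatory factor core, 8.3% the gamma-activated sequence and 4.51% the NF-kappaB consensus. The motifs were chosen with the results known, and a match describes letters, not a site.

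Across the 24 arrays, limma (18 residual degrees of freedom, all 6 groups in 1 model) called a gene at a Benjamini-Hochberg adjusted p under 0.05 over all genes. All levels are log2 values on the RMA scale and differences are on the same scale, so 1 unit is a doubling. Array medians lay between 5 and 5.19, and without a detection call a level near 3 to 4 cannot be told from background. A fold against such a level is a ratio of array values, to be read as a lower bound. The cells carried their labels' markers in part. The 6 macrophage markers (Ptprc and Csf1r among them) averaged 11.98 to 12.22 on the macrophage arrays and 4.24 to 4.78 on those of the lines. The 5 epithelial markers averaged 6.03 to 7 in the lines and 4.89 to 5.29 in macrophages. Krt19 stood at 11.31 to 12.12 in the lines. Krt8 was at 9.25 and 9.03 in C57epi.1 but at 5.67 and 5.78 in Bm12.4, beside 5.38 and 5.62 in macrophages. Krt18 ran from 4.72 to 5.62 in the lines, beside 5.02 and 4.92 in macrophages. The defining Epcam was at 3.67 to 3.75 in the lines and Cdh1 at 4.3 to 4.5, below its 6.65 and 7.25 in macrophages. The 4 stromal markers averaged 9.9 to 12.04 in the lines and 5.66 to 6.12 in macrophages. The part of these markers in the differences between cells was not tested. Over all genes, deviations from the group means correlated at 0.512 to 0.625 between same-numbered media arrays of the lines. Calls that were gained or lost within replicates 1 and 2 or within 3 and 4 are given beside each member.

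In the supernatant, the macrophages raised the chain genes Il12b and Il27 together with Il15, Il15ra and Il7. Both lines raised Il15 and Il15ra without Il12b or Il27 passing the test. C57epi.1 also raised Il23a and Il7 by small amounts. In macrophages 5 of 8 members were called higher, where 6.13% of all genes were, and 0 lower, against 6.31%. In C57epi.1 4 of 8 were called higher (background 8.85%) and 0 lower (10.4%), and in Bm12.4 2 of 8 higher (4.54%) and 0 lower (2.7%). By limma, 0 members were lower at an unadjusted p under 0.05 in any of these 3 effects. The median difference of the 8 members was 0.889 in macrophages, 0.394 in C57epi.1 and −0.0388 in Bm12.4, beside −0.0175, −0.045 and −0.05 over all genes.

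**Figure D1:**
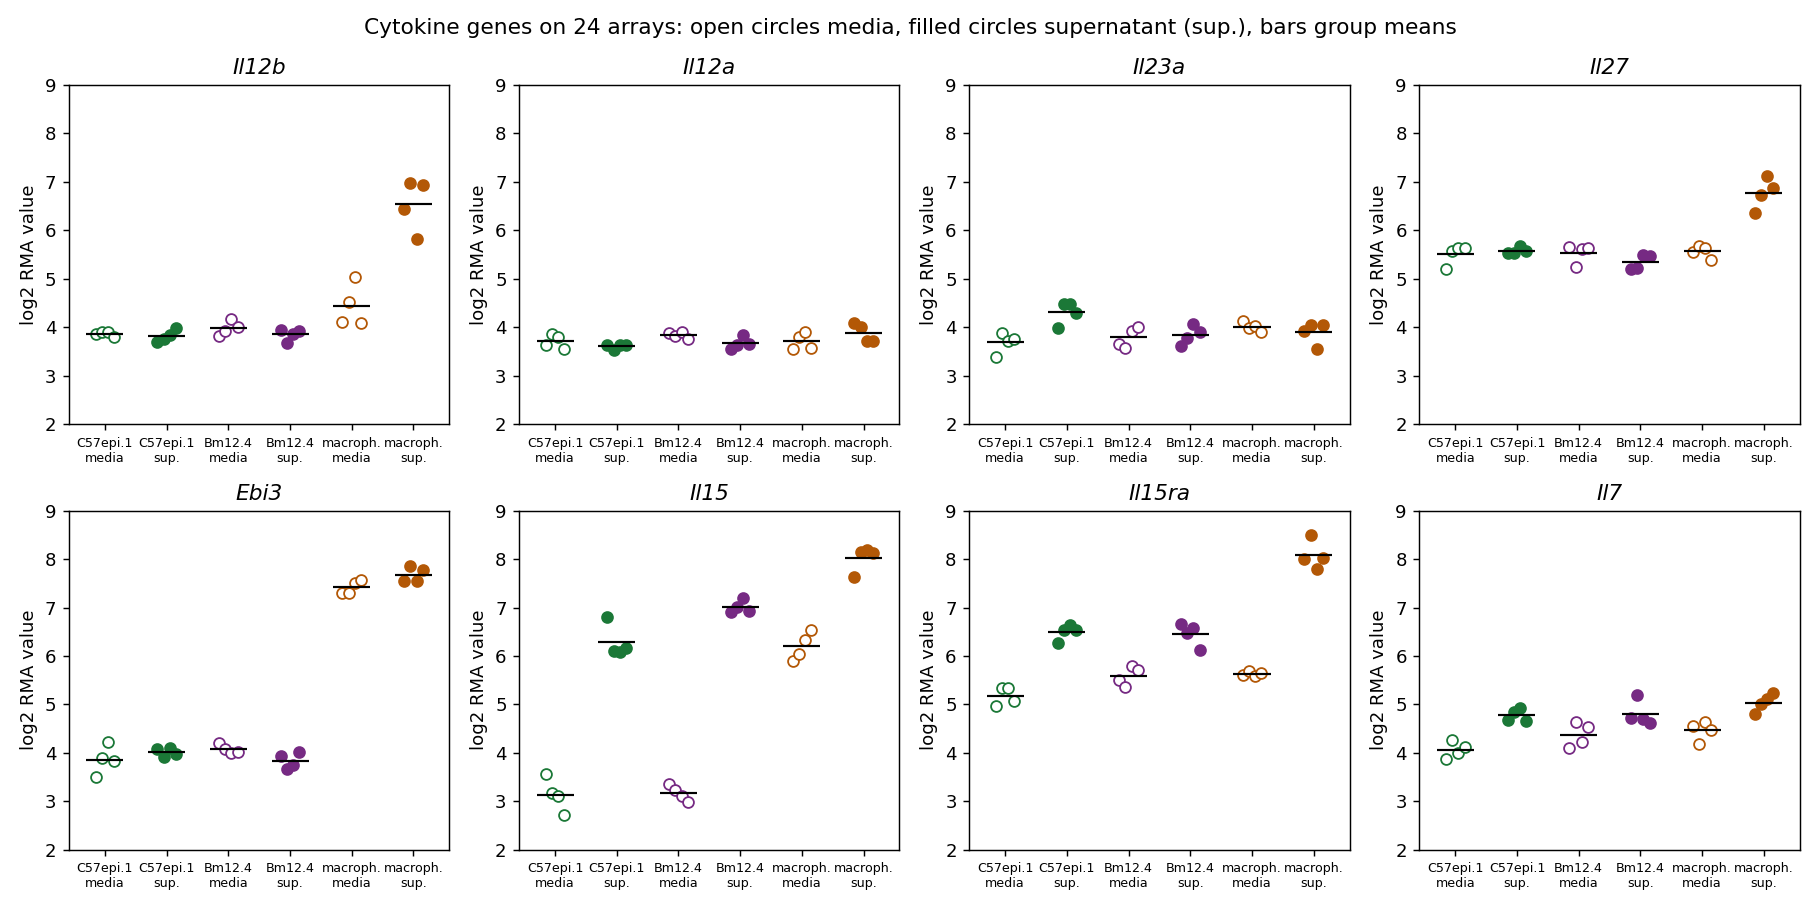
Log2 RMA values of the 8 genes on every array (vertical axis, log2) in the 6 groups (horizontal axis); open circles are media, filled circles supernatant, and bars are means of 4 arrays. Il12b and Il27 stand apart in treated macrophages, Ebi3 in both macrophage groups, and Il15 and Il15ra are higher in supernatant in all 3 kinds of cell.

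Il12b, the shared receptor-like chain, stood at 4.1, 4.51, 5.03 and 4.08 on the 4 macrophage arrays in media and at 6.43, 6.98, 5.81 and 6.93 in supernatant. All treated macrophage arrays lay above all others, and the 4 treated values spread over more than 1 unit. The rise was 2.11 (4.31-fold, SE 0.201, limma adjusted p = 5.79e-08). That SE pools the spread of all 6 groups, and the SDs of Il12b were 0.45 and 0.54 in macrophages but 0.05 to 0.14 in the lines. With replicate number as a block in the 2 macrophage groups alone, limma gave the same rise with an adjusted p of 0.00128. That was the highest adjusted p for this rise among the 35 alternatives. Same-numbered macrophage arrays correlated at only −0.134 to 0.118 between media and supernatant, so that block matches little shared deviation. In the lines Il12b lay between 3.67 and 4.16 in all 16 arrays, with effects of −0.05 in C57epi.1 (adjusted p = 0.929) and −0.12 in Bm12.4 (adjusted p = 0.823). The difference in response between the lines and the macrophages was −2.19 (SE 0.246, adjusted p = 1.7e-06). In media the lines minus macrophages difference of Il12b was −0.51 (adjusted p = 0.0187), with overlapping arrays. That call rested on single macrophage arrays in media: without replicate 3 the difference was −0.31 (adjusted p = 0.153) and without replicate 2 it was −0.48 (adjusted p = 0.0519). In replicates 3 and 4 alone it was −0.59 (adjusted p = 0.0923).

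Il12a, the partner chain that completes interleukin-12, was not called for supernatant in any kind of cell. It stood at 3.54, 3.8, 3.91 and 3.57 in macrophages in media and at 4.08, 4.01, 3.71 and 3.72 in supernatant, an overlap of the groups with a difference of 0.18 (SE 0.101, adjusted p = 0.35). Over the 6 groups its means ran from 3.61 to 3.88, and in that order each group overlapped its neighbour. In supernatant Il12a was called lower in the lines than in macrophages (−0.24, adjusted p = 0.0251), again with overlapping arrays. The call was lost without treated macrophage replicate 1 (−0.18, adjusted p = 0.139) or replicate 2 (−0.2, adjusted p = 0.104), and in replicates 3 and 4 alone the difference was −0.02 (adjusted p = 0.909). It was lost too with arrays quantile-normalized again (−0.16, adjusted p = 0.111) or centred on their median (−0.18, adjusted p = 0.0768). The response difference between the lines and the macrophages was −0.31 (adjusted p = 0.147), and was called in replicates 1 and 2 alone (−0.59, adjusted p = 0.0384) but not in 3 and 4 (−0.03, adjusted p = 0.936).

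Il23a, the partner chain of interleukin-23, was raised in C57epi.1. Its values there were 3.38, 3.88, 3.72 and 3.76 in media and 3.98, 4.48, 4.48 and 4.3 in supernatant. The treated arrays lay just above the media arrays, by 0.63 on average (1.54-fold, SE 0.139, adjusted p = 0.00221). With replicates 1 and 2 alone it was 0.6 (adjusted p = 0.0557). The effect was 0.05 in Bm12.4 (adjusted p = 0.91) and −0.12 in macrophages (adjusted p = 0.754), with overlapping arrays in both. The difference in response between C57epi.1 and Bm12.4 was 0.58 and was not called (SE 0.196, adjusted p = 0.109). It was called without treated C57epi.1 replicate 1 (0.69, adjusted p = 0.0442) or with median centring (0.59, adjusted p = 0.0487). With replicate number as a block it was called in the fit of the groups compared (0.58, adjusted p = 0.0441) and not over all 24 arrays (adjusted p = 0.0812). The response difference from macrophages was 0.45 (adjusted p = 0.119), and was called with quantile normalization (0.51, adjusted p = 0.0391) or median centring (0.47, adjusted p = 0.0443). All 6 group means of Il23a lay between 3.68 and 4.31, at levels that the arrays cannot tell from background, and in the order of the means each group overlapped the next.

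Il27, the helical chain of interleukin-27, stood at 5.55, 5.68, 5.64 and 5.39 in macrophages in media and at 6.36, 6.72, 7.12 and 6.87 in supernatant. The treated macrophage arrays lay above all 20 others, and the remaining 5 groups overlapped each neighbour in order, with means from 5.34 to 5.58. The rise was 1.2 (2.3-fold, SE 0.135, adjusted p = 7.01e-07). Replicates 1 and 2 alone gave 0.93, and replicates 3 and 4 alone 1.48. Il27 had effects of 0.07 in C57epi.1 (adjusted p = 0.821) and −0.2 in Bm12.4 (adjusted p = 0.513). The lines' response lay 1.27 below that of the macrophages (a difference of −1.27, SE 0.165, adjusted p = 1.5e-05).

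Ebi3, the receptor-like partner of Il27, marked the macrophages in either medium. Its macrophage values were 7.31, 7.3, 7.51 and 7.56 in media and 7.54, 7.86, 7.54 and 7.78 in supernatant, and these groups overlapped. All 16 arrays of the lines lay between 3.5 and 4.22. In media the lines were lower (−3.45, at least 10.9-fold, SE 0.104, adjusted p = 2.39e-18) and in supernatant likewise (−3.75, at least 13.4-fold, adjusted p = 4.9e-19). The supernatant effect was 0.26 in macrophages (SE 0.12, adjusted p = 0.199), 0.16 in C57epi.1 (adjusted p = 0.425) and −0.24 in Bm12.4 (adjusted p = 0.305). None of these 3 effects was called.

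Il15 rose in every kind of cell, and further in the lines than in the macrophages. In C57epi.1 it stood at 3.56, 3.17, 3.1 and 2.72 in media and at 6.8, 6.1, 6.08 and 6.17 in supernatant. In Bm12.4 the media values were 3.36, 3.24, 3.11 and 2.99 and the treated values 6.91, 7.01, 7.19 and 6.93. In macrophages they were 5.9, 6.04, 6.33 and 6.54 and then 7.63, 8.14, 8.19 and 8.12. No treated array overlapped a media array of its own kind, and the treated C57epi.1 arrays overlapped the untreated macrophages.

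The rise of Il15 was 3.84 in Bm12.4 (at least 14.3-fold, SE 0.179, adjusted p = 2.6e-13), 3.15 in C57epi.1 (at least 8.88-fold, adjusted p = 8.23e-12) and 1.82 in macrophages (3.52-fold, adjusted p = 9.31e-08). The mean response of the lines exceeded that of the macrophages by 1.68 (SE 0.219, adjusted p = 1.55e-05), a difference between array values, since the media levels of the lines lay near 3. The lines were lower than macrophages in media (−3.05, at least 8.26-fold, adjusted p = 5.82e-14) and in supernatant (−1.37, 2.59-fold, adjusted p = 7.64e-08). In supernatant C57epi.1 lay below Bm12.4 (−0.72, adjusted p = 0.00298), with no overlap. In replicates 1 and 2 alone that difference was −0.51 (adjusted p = 0.126). The difference in response between the lines was −0.69 and was not called (adjusted p = 0.149). It was called without treated C57epi.1 replicate 1, the highest of its group (−0.86, adjusted p = 0.0413), and in replicates 3 and 4 alone (−0.79, adjusted p = 0.0207). Il15 ranked from treated macrophages (8.02 ± 0.26, SD, n = 4) through treated Bm12.4 (7.01 ± 0.13), treated C57epi.1 (6.29 ± 0.34) and untreated macrophages (6.2 ± 0.29) to untreated Bm12.4 (3.17 ± 0.16) and C57epi.1 (3.14 ± 0.34). Arrays overlapped between treated C57epi.1 and untreated macrophages and between the untreated lines, and between no other neighbours in that order.

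Il15ra, the chain that presents interleukin-15, rose in every kind of cell too, but further in the macrophages. Its media values were 4.96, 5.34, 5.33 and 5.07 in C57epi.1, 5.5, 5.36, 5.79 and 5.72 in Bm12.4 and 5.6, 5.7, 5.59 and 5.65 in macrophages. In supernatant they were 6.27, 6.53, 6.64 and 6.53, then 6.67, 6.48, 6.57 and 6.13, and in macrophages 8, 8.49, 7.8 and 8.03. Every treated array lay above all 12 media arrays, and the treated lines overlapped each other.

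The rise of Il15ra was 2.44 in macrophages (5.45-fold, SE 0.138, adjusted p = 9.63e-12), 1.32 in C57epi.1 (2.49-fold, adjusted p = 2.8e-07) and 0.87 in Bm12.4 (1.83-fold, adjusted p = 0.000141). For Bm12.4, replicates 1 and 2 alone gave 1.14, and replicates 3 and 4 alone 0.6 (adjusted p = 0.015). The lines' response lay below that of the macrophages (a difference of −1.35, SE 0.169, adjusted p = 8.38e-06), the opposite sign to the difference for Il15. In media the difference between the lines and the macrophages was not called (−0.25, adjusted p = 0.0939), while in supernatant it was (−1.6, 3.04-fold, adjusted p = 6.65e-11). Il15ra was lower in C57epi.1 than in Bm12.4 in media (−0.42, adjusted p = 0.0297), and the difference in supernatant was 0.03 (adjusted p = 0.927). The media call was lost without C57epi.1 replicate 1 (−0.35, adjusted p = 0.107) or 4 (−0.38, adjusted p = 0.0788) or Bm12.4 replicate 3 (−0.35, adjusted p = 0.104) or 4 (−0.38, adjusted p = 0.0857). It was lost too with only these 2 groups in the fit and no block (−0.42, adjusted p = 0.0785). Same-numbered media arrays of the lines deviated together (r from 0.512 to 0.625). With replicate number as a block in these 2 groups alone the call was kept (−0.42, adjusted p = 0.0429). With the block over all arrays it was kept as well (adjusted p = 0.0305). In replicates 1 and 2 alone the call was lost (−0.28, adjusted p = 0.38), beside −0.56 in replicates 3 and 4 (adjusted p = 0.011). The response difference of Il15ra between the lines was 0.45 and was not called (adjusted p = 0.25). It was called in replicates 3 and 4 alone (0.79, adjusted p = 0.027), beside 0.1 in replicates 1 and 2 (adjusted p = 0.924).

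Il7 rose in C57epi.1 and in macrophages by less than 1 log2 unit. Its group means lay between 4.06 and 5.04, low beside array medians of 5 to 5.19, and its untreated C57epi.1 level was near background. In C57epi.1 its values were 3.88, 4.27, 3.99 and 4.12 in media and 4.67, 4.84, 4.93 and 4.66 in supernatant, a rise of 0.71 without overlap (1.64-fold, SE 0.139, adjusted p = 0.000672). In macrophages they were 4.55, 4.19, 4.64 and 4.47 and then 4.8, 5.01, 5.11 and 5.23, a rise of 0.58 without overlap (adjusted p = 0.00603). With replicates 1 and 2 alone these rises were 0.68 (adjusted p = 0.0592) and 0.54 (adjusted p = 0.144). In Bm12.4 they were 4.11, 4.63, 4.23 and 4.53 and then 4.73, 5.19, 4.7 and 4.61, where 1 treated array fell below 1 media array. That difference was 0.43 and was not called (adjusted p = 0.0643). It was called with quantile normalization (0.48, adjusted p = 0.0423), with median centring (0.48, adjusted p = 0.049) and without Bm12.4 media replicate 2 (0.52, adjusted p = 0.0318). With replicate number as a block over all arrays the difference was called (adjusted p = 0.0496). That fit gives the macrophages the same replicate effect, and their same-numbered arrays correlated at only −0.134 to 0.118 between media and supernatant. Same-numbered Bm12.4 arrays did deviate together. With the block in these 2 Bm12.4 groups alone, the fit that matches this pairing, the difference was not called (adjusted p = 0.0884). Neither response difference of Il7 was called, at 0 between the lines and the macrophages (adjusted p = 0.996) and 0.28 between the lines (adjusted p = 0.565).

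**Figure D2:**
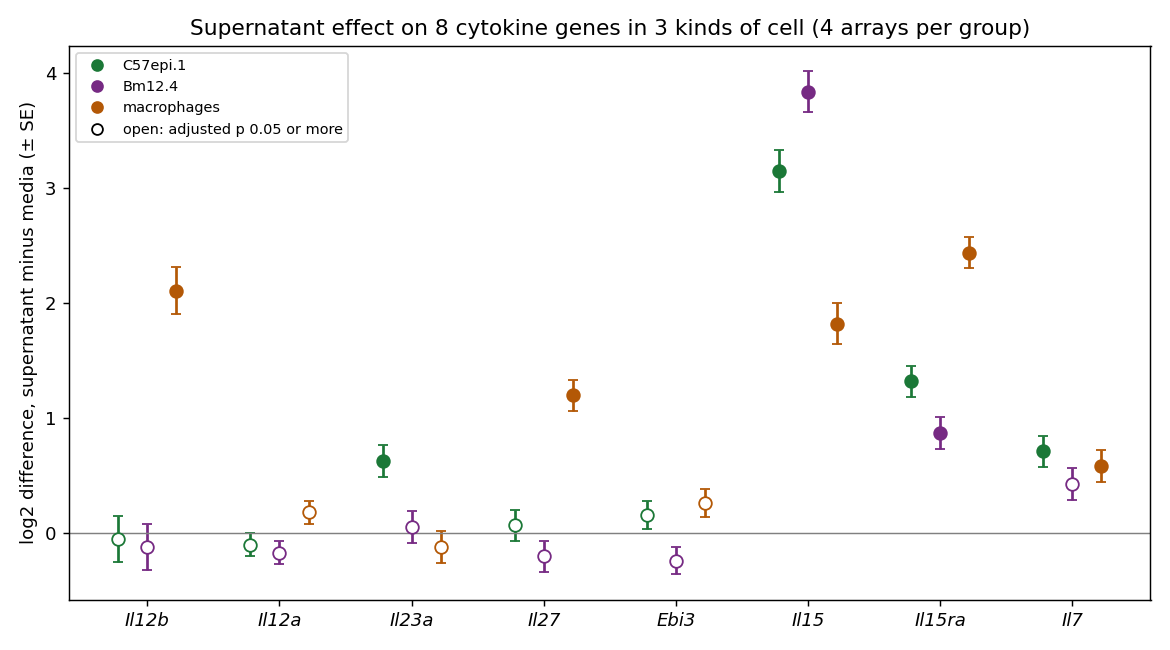
Supernatant effect (supernatant minus media, log2 difference ± SE from limma, vertical axis) for each of the 8 genes (horizontal axis) in C57epi.1, Bm12.4 and macrophages, 4 arrays per group; filled points passed an adjusted p under 0.05. Il15 is highest in the lines, at 3.15 and 3.84 against 1.82 in macrophages, while Il15ra is highest in macrophages at 2.44, and Il12b and Il27 are filled in macrophages alone.

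Over all members, 3 of 8 were called lower in the lines than in macrophages in media (Ebi3, Il15 and Il12b), where 22.4% of all genes were, and 0 higher, against 24.7%. In supernatant 6 of 8 were called lower (background 24.4%) and 0 higher (24.3%), the exceptions being Il23a and Il7. At an unadjusted p under 0.05 limma had 0 members higher in either. Il7 was not called in either medium, although it was in media without macrophage replicate 2 (−0.33, adjusted p = 0.0386) and in supernatant without treated Bm12.4 replicate 2 (−0.31, adjusted p = 0.025) or treated macrophage replicate 1 (−0.33, adjusted p = 0.0462). In replicates 3 and 4 alone Il7 was called lower in the lines in media (−0.34, adjusted p = 0.0295) and in supernatant (−0.44, adjusted p = 0.00586). Il23a was called lower in the lines in media without C57epi.1 replicate 2 (−0.3, adjusted p = 0.0474) or Bm12.4 replicate 4 (−0.31, adjusted p = 0.0418), and in replicates 1 and 2 alone (−0.43, adjusted p = 0.0418). In supernatant its difference had the other sign (0.18, adjusted p = 0.235). There it was called higher in the lines with quantile normalization (0.28, adjusted p = 0.0392), with median centring (0.25, adjusted p = 0.0489) and in replicates 3 and 4 alone (0.38, adjusted p = 0.0254), while replicates 1 and 2 alone gave −0.02 (adjusted p = 0.933).

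The lines differed from each other in 1 of 8 members in media (Il15ra, background 24.4%) and in 2 of 8 in supernatant (Il15 lower and Il23a higher in C57epi.1, background 29.9%). Il23a differed there by 0.47 (SE 0.139, adjusted p = 0.0111), with overlapping arrays, and by 0.53 in replicates 1 and 2 alone (adjusted p = 0.0535). In media, where same-numbered arrays of the lines deviated together, the fit of these 2 groups with replicate number as a block also called Il7 (−0.31, adjusted p = 0.0451), and the block over all 24 arrays did not (adjusted p = 0.0994). Without Bm12.4 replicate 1 Il7 was called at −0.4 (adjusted p = 0.0471), and without C57epi.1 replicate 3 Ebi3 was called at −0.34 (adjusted p = 0.0322). The response to the supernatant differed between the lines and the macrophages for 4 of 8 members (8.08% of all genes). It differed between the lines for 0 of 8 by limma (4.03% of all genes), with 4 members at an unadjusted p under 0.05.

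The receptors for these cytokines were measured through 12 subunit genes. In macrophages 4 rose and 1 fell with supernatant, where 6.13% of all genes rose and 6.31% fell. In C57epi.1 2 rose and 1 fell (all genes 8.85% and 10.4%). In Bm12.4 2 rose and 0 fell (all genes 4.54% and 2.7%), with 1 lower at an unadjusted p under 0.05 by limma. The list medians were 0.15, 0.03 and −0.03. Il12rb1, the chain common to the interleukin-12 and interleukin-23 receptors, rose by 3.75 in macrophages, 2.55 in C57epi.1 and 2.2 in Bm12.4. Il12rb2 (1.53) and Il23r (2.25), which complete those receptors, and Il21r (1.24) were called in macrophages, where the SDs of the treated group were 0.63 for Il12rb2 and 0.85 for Il23r. In the lines Il12rb2 and Il23r had differences between −0.05 and 0.02. Their responses differed from that of the macrophages by −1.51 for Il12rb2, −2.27 for Il23r and −1.37 for Il12rb1, each called. Il7r, the interleukin-7 receptor, stood at 11.76 ± 0.22 (SD, n = 4) in untreated macrophages and at 3.63 ± 0.09 and 3.61 ± 0.31 in the lines, a difference of −8.14. Il2rb, through which interleukin-15 signals, lay between 3.8 and 4.1 in all 6 groups and was not called for supernatant. Il18rap, an interleukin-18 receptor chain, rose by 1.09 in C57epi.1. Il6st, the signalling chain of the interleukin-27 receptor, was the one that fell, in C57epi.1 (−0.33) and macrophages (−0.31), and it rose in Bm12.4 (0.4).

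Of 9 Janus kinase and Stat genes, 3 rose in macrophages and in Bm12.4 and 2 in C57epi.1, where 1 fell. In Bm12.4 and in macrophages 0 fell, and by limma 0 were lower at an unadjusted p under 0.05. Of all genes, 6.13% rose and 6.31% fell in macrophages, 4.54% and 2.7% in Bm12.4, and 8.85% and 10.4% in C57epi.1. The list medians were 0.29 in macrophages, 0.27 in Bm12.4 and 0.03 in C57epi.1. Stat2, which carries interferon signals, rose by 3.39, 3.17 and 2.94 in C57epi.1, Bm12.4 and macrophages. In media its SDs were 0.49, 1.4 and 0.17 in these cells (n = 4), so the untreated Bm12.4 arrays were uneven. Jak2, which serves the interleukin-12 and interferon-gamma receptors, rose by 1.13, 1.25 and 1.32. Stat4, the Stat that interleukin-12 activates, rose in macrophages by 1.91, from 4.43 ± 0.33 to 6.34 ± 0.96 (SD, n = 4), and lay between 3.2 and 3.34 in the lines. Tyk2, the kinase bound to Il12rb1, moved in opposite directions in the lines, −0.44 in C57epi.1 and 0.44 in Bm12.4, and that difference in response was called (−0.88).

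Among 17 transcription factors that act on these genes or in the same pathways, 10 rose and 3 fell in C57epi.1 (all genes 8.85% and 10.4%). In Bm12.4 11 rose and 0 fell (all genes 4.54% and 2.7%), and in macrophages 9 rose and 0 fell (6.13% and 6.31%). At an unadjusted p under 0.05 limma had 2 lower in Bm12.4 and 0 in macrophages. The list medians were 0.78, 0.68 and 0.44. The 3 that fell in C57epi.1 were Nlrc5 (−0.42), Spi1 (−0.37) and Irf3 (−0.28), and Nlrc5, an activator of MHC class I genes, rose in Bm12.4 (1.03) and macrophages (1.21). Spi1, a myeloid factor, went from 4.21 to 3.85 in C57epi.1, levels near background, and rose in macrophages (0.43, from 11.08 to 11.51). Irf1, an interferon-induced activator, rose by 3.55, 2.41 and 3.87 in C57epi.1, Bm12.4 and macrophages. Irf7 rose by 5.4, 4.05 and 5.39 and Batf2 by 4.73, 4.87 and 3.45. Irf8, a myeloid factor known to act on Il12b, rose in macrophages by 1.46, from 9.79 ± 0.12 to 11.26 ± 0.36 (SD, n = 4), and stood at 5.08 to 5.39 in the lines. The difference in response of Irf8 was called (−1.51). The NF-kappaB subunits Rel and Rela rose in both lines, by 0.78 and 0.65 in C57epi.1 and by 0.68 and 0.33 in Bm12.4, and were not called in macrophages (0.43 and 0.21). Nfkb2 likewise rose in C57epi.1 (0.78) and Bm12.4 (0.43) and was not called in macrophages (0.28), while Relb rose in C57epi.1 (0.9), Bm12.4 (0.68) and macrophages (0.44). Irf9, the partner of Stat2, rose in C57epi.1 (2.56) and Bm12.4 (1.85) and stood at 1.06 in macrophages (adjusted p = 0.103). The response difference between the lines and the macrophages was not called for Rel (0.3, adjusted p = 0.463), Rela (0.28, adjusted p = 0.122), Nfkb2 (0.32, adjusted p = 0.262), Relb (0.35, adjusted p = 0.251) or Irf9 (1.14, adjusted p = 0.199).

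Of 18 partner cytokines, 3 rose and 1 fell in C57epi.1 (all genes 8.85% and 10.4%). In Bm12.4 3 rose and 0 fell (all genes 4.54% and 2.7%), and in macrophages 2 rose and 0 fell (6.13% and 6.31%). By limma 0 were lower in Bm12.4 or macrophages at an unadjusted p under 0.05. The list medians were 0.08, 0.015 and 0.09. Il18bp, which binds and blocks interleukin-18, rose by 2.85, 2.86 and 2.99 in C57epi.1, Bm12.4 and macrophages. Tnf rose in macrophages (1.88), and Il6 rose in C57epi.1 and Bm12.4 (2.09 in both), from media levels near background (2.66 and 2.79) to 4.76 and 4.88. For Tnf the response of the lines lay below that of the macrophages (−1.82) and for Il6 above it (1.9), both called. Lif rose (1.84) and Il16 fell (−1.13) in C57epi.1, and Tslp rose in Bm12.4 (0.69, from 3.54 to 4.23, levels near background). On the C57epi.1 media arrays the SDs were 1.11 for Il16 and 0.67 for Lif. Ifng lay between 3.94 and 4.16 in all groups. Of the 60 genes on these 4 lists, 56 were measured by a probe set with a single symbol.

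**Figure D3:**
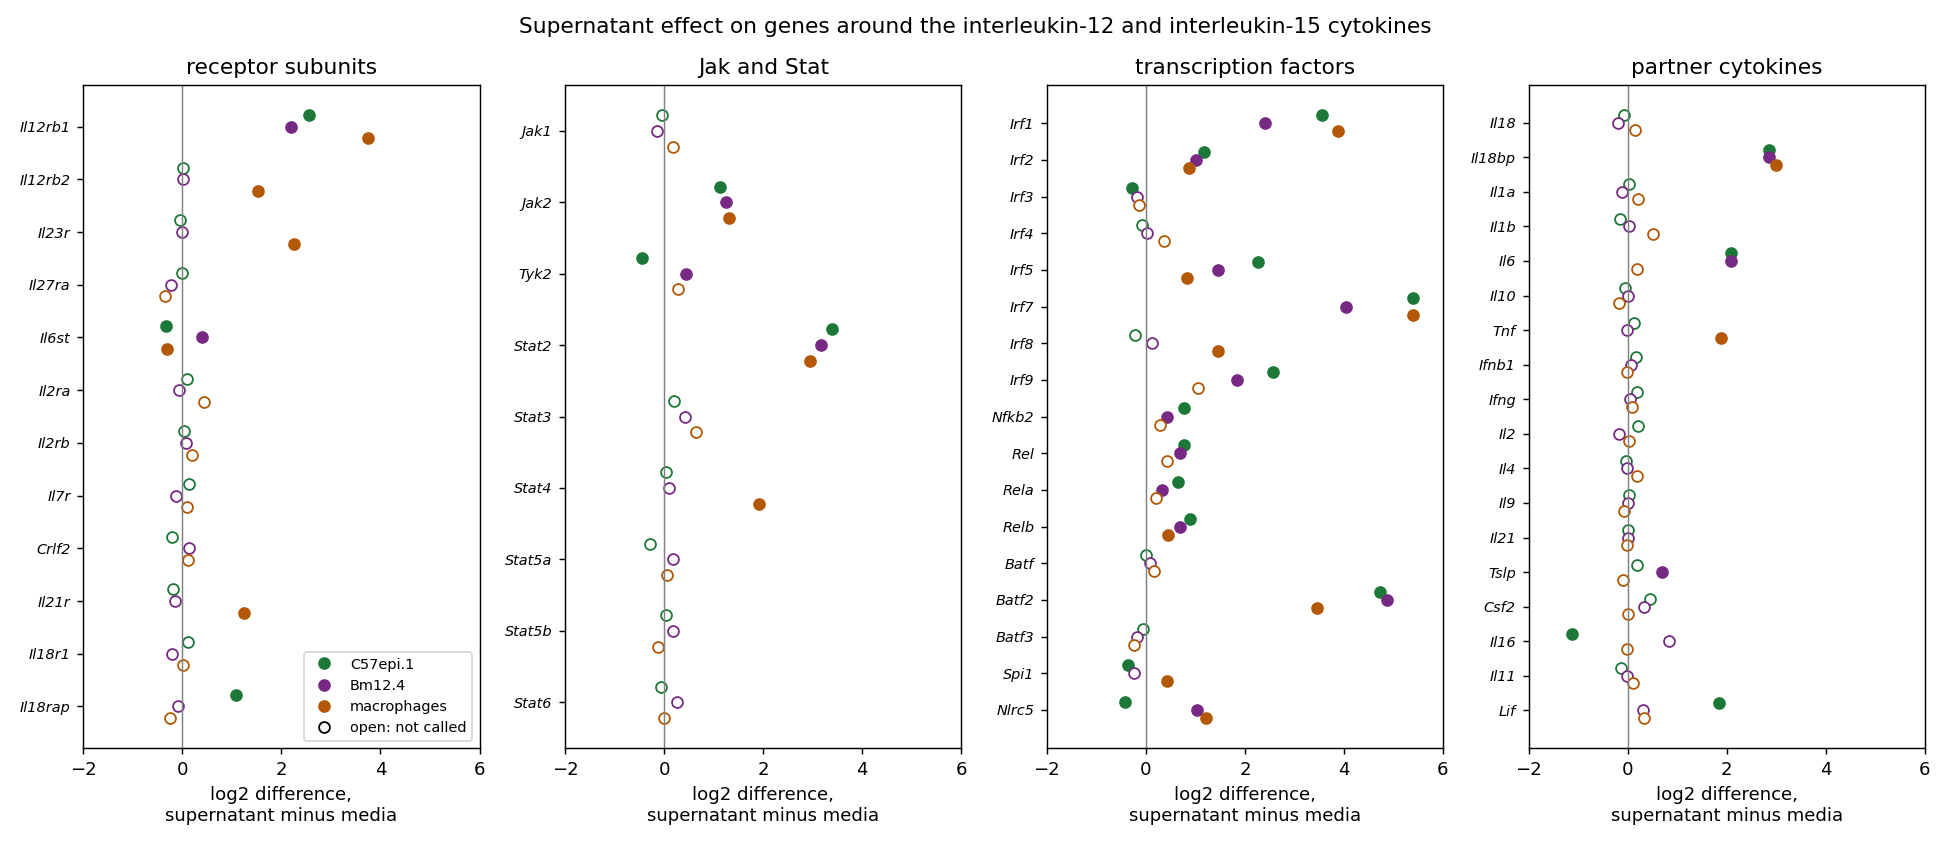
Supernatant effect (supernatant minus media, log2 difference, horizontal axis) of 56 genes on 4 lists (vertical axis) in C57epi.1, Bm12.4 and macrophages; filled points passed limma's adjusted p under 0.05. Il12rb2, Il23r, Stat4, Irf8 and Tnf are filled in macrophages alone, and Il12rb1, Irf1 and Il18bp in all 3 kinds of cell.

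The 3 genes most like each member over the 24 arrays, by Pearson's r, describe how the patterns differ. Predicted, Riken, LOC and accession-like names were passed over. Ebi3 was closest to Unc93b1, Csf2rb2 and F10 (each r = 0.995), genes high in macrophages in either medium. Il15 was closest to Samhd1 (0.984), Cfb (0.977) and Sp140 (0.975). Il12b was closest to Ocstamp (0.963), Cd40 (0.962) and Coa5 (0.957), and Il27 to Klrk1 (0.946), Calhm6 (0.93) and Tmem171 (0.93). Cd40 ran at 5.42 in untreated and 8.59 in treated macrophages and at 4.84 to 5.16 in the lines. Il15ra was closest to Slfn4 (0.955), Il18bp (0.919) and Ccl5 (0.919), and Il7 to Rsad2 (0.85), Tapbpl (0.847) and Gbp8 (0.844). Il23a was closest to Prm3 (0.878), Arhgap8 (0.78) and Ido2 (0.766), and Il12a to Duoxa2 (0.781), Thbs4 (0.761) and Lta (0.755). By rank (Spearman's rho), these pairs ran from 0.464 (Il27 and Calhm6) to 0.91 (Il15 and Samhd1). These arrays share groups, so the r values largely restate the group means.

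Among members, Il12b and Il27 correlated at 0.886 over the 24 arrays and Il15 and Il15ra at 0.805. As deviations from the group means, the same pairs gave −0.0314 and −0.227. All pairs share the same arrays, and these values are a description.

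Markers of other cells were set beside the macrophage results. The 7 dendritic cell markers averaged 6.34 to 6.63 per array in untreated and 6.33 to 6.75 in treated macrophages. Among them Itgax (12.16 and 11.99) was high, Ccr7 went from 7.76 to 9.15, Clec9a from 7.92 to 7.14 and Zbtb46 from 5.56 to 5.63, and Flt3, Xcr1 and Cd209a stood at 3.57 to 4.72. The 4 neutrophil markers averaged 6.23 to 6.6 in untreated and 6.25 to 7.64 in treated macrophages. Of these Mmp8 stood at 12.05 and 11.45, S100a8 at 5.6 and 5.63, S100a9 at 4.99 and 5.4 and Ly6g at 3.26 and 4.81. The 5 of 6 T cell markers measured averaged 4.44 to 4.7 in untreated and 4.01 to 4.21 in treated macrophages, and 3.68 to 3.95 in the lines. In macrophages Cd28 went from 5.85 to 4.19, while Cd3e, Cd3g, Cd4 and Cd2 stood at 3.37 to 5. The 2 of 3 B cell markers measured averaged 4.05 to 4.58 in macrophages. The part of such cells in the rises of Il12b and Il27 was not tested.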

How the data were processed

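Total RNA (100 ng per array, biotin-labelled) was measured on 24 whole-transcript arrays. Per the submitters' processing notes, the authors used GCOS, Partek 6.2 and RMA. The deposited values are log2 values per probe set and array, with no version named for GCOS or RMA. Of 28853 probe sets, 21789 had 1 gene symbol in the platform annotation and gave 19938 genes, keeping the highest-mean probe set per symbol. The 8 members' Entrez IDs matched GRCm38.p6 RefSeq entries. No detection call or raw scan was used, and the number of arrays, 4 per group, limits the precision.

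limma 3.58.1 (R 4.3.3) (lmFit, eBayes) took the 24 arrays together, with 1 mean for each group (18 residual and 3.62 prior degrees of freedom), for 9 comparisons. Tests were two-sided, with Benjamini-Hochberg adjustment across the 19938 genes and calls at adjusted p under 0.05. The fit was tested on simulated data. The members, gene lists and settings were chosen with earlier results of these data known. Named were all members, the largest called list genes of the 3 supernatant effects (up to 4 per list and effect) and those whose supernatant call differed between cells. The largest list differences between kinds of cell were not all named. Also named were marker genes and the 3 most correlated genes per member, with predicted, Riken, LOC and accession-like names passed over. Il2rb, Il7r, Relb and Ifng were named after their values were seen. Listed genes without a probe set of a single symbol were not analysed here. Replicate numbers come from the sample titles. Same-numbered arrays deviated together (every r over 0.1 of 4 pairs) between media and supernatant in Bm12.4 (0.226 to 0.683) and between the lines in media (0.512 to 0.625). They did so in part, with 3 of 4 pairs over 0.1, between media and supernatant in C57epi.1 (−0.143 to 0.396) and between the treated lines (0.0836 to 0.27). In the other pairs of groups compared 0 or 1 of 4 were over 0.1. No 2 arrays held identical values, and replicates correlated at 0.967 to 0.9975. Alternatives were another probe set rule, all probe sets, a filter on dim genes (6 or more on at least 4 arrays), 2 normalizations, trended and robust moderation, fewer groups, replicate and set blocks, each set alone, and leaving out each array.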

Additional observations from a re-analysis of the deposited data

Results flagged for a closer look

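Of 48 sets of 4 arrays (8 members in 6 groups), 5 had 1 array far from the other 3, its gap to the nearest, as a share of the range, being above Dixon's critical value. Chance flags about 1 in 20 such sets. Treated C57epi.1 replicate 1 was high for Il15 at 6.8, beside 6.08 to 6.17 in the others. Treated macrophage replicate 1 was low for Il15 at 7.63, beside 8.12 to 8.19. For Il27, C57epi.1 media replicate 1 was low at 5.2 and Bm12.4 media replicate 2 at 5.24, beside 5.58 to 5.63 and 5.61 to 5.66. For Il12a, treated C57epi.1 replicate 2 was low at 3.52, with the other 3 at 3.64.

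A called difference in response between the lines and the macrophages was found for 4 members. The lines' mean response was smaller for Il12b (−2.19), Il15ra (−1.35) and Il27 (−1.27), and larger for Il15 (1.68), each on the log2 scale and each tested as an interaction in limma.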

How the results depend on the processing

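The replicate block within the groups compared was added to the 36 alternatives after the data were seen. Of 27 called member differences, 19 kept direction and call under every alternative that tested them, 0 changed direction and 8 lost the call under at least 1. The filter on dim genes removed Il12a, Il12b, Il23a and Il7, so their differences were tested under 35. It kept Il27 only through its 4 treated macrophage arrays (6.36 to 7.12) and Ebi3 only through macrophage arrays. For calls of Il27 and Ebi3 among the 19, the filter is therefore no separate check. Each member had 1 probe set, so another probe set rule left its own values unchanged. Of 45 uncalled differences, 12 were called under some alternative and 17 changed sign. With the filter on dim genes, which left 4 of the 8 members to test, 2 were called in C57epi.1, 3 in macrophages and 1 between the treated lines. With replicates 1 and 2 alone, 12 of 24 arrays, 2 were called in C57epi.1 and 0 between the lines in media or in supernatant. The count between the lines in media was 0 with only those groups in the fit, 2 with the replicate block in those groups, and 0 to 2 when 1 array was left out. The count of response differences between the lines was 1 with arrays centred on their median, 1 with the replicate block in the groups compared, 2 with replicates 3 and 4 alone, and 0 to 2 when 1 array was left out. The cause of these shifts was not tested. Some of these settings had fewer genes or arrays, while median centring kept all of both. Among the supernatant effects and response differences, the signs that changed were these, all of uncalled differences. Il12a in macrophages was −0.02 in replicates 3 and 4. Il12b in C57epi.1 was 0.01 with median centring and 0.06 in replicates 3 and 4, and its response difference between the lines −0.09 in replicates 1 and 2. Il27 in C57epi.1 was −0.01 in replicates 3 and 4 and −0.04 to 0.11 when 1 array was left out. Il23a in Bm12.4 was −0.03 to 0.12 when 1 array was left out. The Il7 response difference between lines and macrophages was 0.02 under either normalization, 0.1 in replicates 1 and 2, and −0.08 to 0.09 when 1 array was left out. The replicate block changed 1 call over all 24 arrays, that of Il7 in Bm12.4 (0.43), given above. Within the groups compared it changed 3: Il7 between the lines in media and the Il23a response difference between the lines, given above, and Il12a between the treated lines and macrophages, which it lost (−0.24, adjusted p = 0.0517). Without detection calls, levels near 3 to 4 limit what Il12a, Il23a, and in the lines Il12b, Ebi3 and untreated Il15, can show. Il7, with group means from 4.06 to 5.04, was dim as well.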
